A study of Mus musculus with 7 samples.

Results

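The muscle acetylcholine receptor and the genes that build and hold it at the neuromuscular junction were followed in the quadriceps femoris, a thigh muscle, of mice overexpressing mutant Twinkle and of wild-type mice. The 9 genes were Chrna1, Chrnb1, Chrnd, Chrne and Chrng for the receptor subunits, Musk, Rapsn and Dok7 for receptor clustering, and Ncam1 for adhesion. Every probe set annotated to 1 symbol among them was taken, which gave 18 of the 45101 probe sets on the array. Twinkle is the helicase of mitochondrial DNA, and mice overexpressing its mutant form were described by the submitters as a model of progressive external ophthalmoplegia, a mitochondrial disease of muscle. The mutant group held 3 mice aged 24, 24 and 21 months in replicates 1, 2 and 3. The wild-type group held 4 mice aged 26, 24, 21 and 23 months in replicates 1, 2, 3 and 4. Strain, sex and the promoter driving the transgene are not given in the sources used here.

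At the junction, the motor nerve releases acetylcholine onto a receptor made of 5 subunits. Fetal and denervated muscle carries the gamma subunit (Chrng), which is replaced by the epsilon subunit (Chrne) when the adult synapse matures, while alpha (Chrna1), beta (Chrnb1) and delta (Chrnd) are part of either form. Agrin from the nerve acts through its receptor LRP4 on the kinase MuSK, the adaptor DOK7 helps to activate MuSK, and the scaffold rapsyn packs the receptors together. When innervation is lost, Chrna1, Chrng, Musk and Ncam1 are known to be transcribed along the whole fibre under myogenin and related E-box factors, which is why these genes serve as signs of denervation.

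The sequences just before the start of 5 members are shown because 3 of these genes (Chrna1, Chrnb1 and Musk) varied together across the arrays and the other two are the fetal and adult subunits. Each is the stretch of 250 bases before the gene start in RefSeq on GRCm38.p6, read in the direction of transcription, and capitals mark the E-box letters CANNTG, which read the same on either strand. The Chrna1 stretch lies at chr2:73580339-73580588 on the minus strand, that of Chrnb1 at chr11:69795938-69796187 on the minus strand, that of Musk at chr4:58285712-58285961 on the plus strand, that of Chrng at chr1:87205561-87205810 on the plus strand and that of Chrne at chr11:70619195-70619444 on the minus strand.
Chrna1: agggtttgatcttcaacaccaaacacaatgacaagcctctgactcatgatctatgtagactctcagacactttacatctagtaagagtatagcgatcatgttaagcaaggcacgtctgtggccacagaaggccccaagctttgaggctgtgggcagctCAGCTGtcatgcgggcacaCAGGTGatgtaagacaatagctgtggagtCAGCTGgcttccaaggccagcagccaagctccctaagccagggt
Chrnb1: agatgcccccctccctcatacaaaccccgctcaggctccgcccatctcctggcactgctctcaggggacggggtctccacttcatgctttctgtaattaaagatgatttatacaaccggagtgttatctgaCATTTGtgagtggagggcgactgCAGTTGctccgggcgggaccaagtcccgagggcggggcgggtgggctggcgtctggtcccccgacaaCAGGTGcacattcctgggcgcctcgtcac
Musk: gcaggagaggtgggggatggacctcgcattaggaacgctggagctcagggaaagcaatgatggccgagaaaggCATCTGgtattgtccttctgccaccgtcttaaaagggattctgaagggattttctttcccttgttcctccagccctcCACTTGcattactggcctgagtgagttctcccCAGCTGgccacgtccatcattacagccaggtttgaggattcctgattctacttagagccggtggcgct
Chrng: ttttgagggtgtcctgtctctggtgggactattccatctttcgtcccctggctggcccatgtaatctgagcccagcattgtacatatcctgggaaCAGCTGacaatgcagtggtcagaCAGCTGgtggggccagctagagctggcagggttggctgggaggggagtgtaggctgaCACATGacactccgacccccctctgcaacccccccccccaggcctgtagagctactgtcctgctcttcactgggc
Chrne: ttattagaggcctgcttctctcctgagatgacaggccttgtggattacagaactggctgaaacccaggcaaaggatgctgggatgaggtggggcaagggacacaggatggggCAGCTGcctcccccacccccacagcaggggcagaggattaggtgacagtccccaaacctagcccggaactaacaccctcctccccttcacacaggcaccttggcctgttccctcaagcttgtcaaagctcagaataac
Chrna1, Chrnb1, Musk and Chrng each held 3 matches of CANNTG, and Chrne held 1. Among the 32851 mouse promoter stretches of the same length, 66.2% held at least 1 match and 12.2% held 3 or more. The form CAGCTG, which is itself an E-box, occurred 2 times in Chrna1 and in Chrng, 1 time in Musk and in Chrne and not in Chrnb1. Of all stretches, 13% held it at least 1 time and 1.26% at least 2 times. The N-box letters CCGGAA, searched on both strands, occurred in Chrne alone of these 5, starting 76 bases before the gene start, and in 12% of all stretches. A match describes letters in this window and is no evidence of binding. For Dok7 the table held 2 stretches, not shown, with 1 and 0 matches of CANNTG and 0 of CAGCTG. Promoter stretches were available for 6 of the 9 members. Those of Chrnd, Rapsn and Ncam1 were missing from the reference used, so they were not searched for these letters.

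Values are on a log2 scale on which 0 is the probe set's median array among the 7 and each unit is a doubling. They compare arrays and hold no level of their own. A coarse level class was recovered from the number spacing, and on that log2 scale 2 of the 18 probe sets lay between 8 and 16, 9 between 4 and 8 and 7 between 2 and 4. All 12 measured muscle fibre markers lay between 8 and 16, and 0 of 10 measured cerebellum markers did, 5 lying between 4 and 8. The sample descriptions name cerebellum while titles, source and tissue entries name muscle, and the muscle entries were used. Several arrays stood apart. A first principal component over 24372 probe sets that were not members held 54.9% of the variance, with scores of 0.527 in mutant replicate 2, 0.427 in wild-type replicate 1 and 0.23 in wild-type replicate 4, and from -0.575 to -0.084 in the other 4 arrays. The 18S ribosomal control averaged 3.19 in mutant replicate 1 and from -0.77 to 0.56 in the other 6. The Gapdh control's 5 prime minus 3 prime value was -0.55 in wild-type replicate 3 and from -0.04 to 0.09 in the other 6. The actin control did not repeat this, with 0.12 in wild-type replicate 3 and from -0.14 to 0.12 in the other 6. Twnk, the gene of the transgene, had values of -0.15, 0.44 and 0.00 in mutant muscle against 0.34, -0.13, -0.14 and 0.15 in wild-type muscle, a log2 difference of 0.04 ± 0.18 (SE), and whether its probe set detects the transgene is not stated in the labels.

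The fetal and adult receptor subunits did not separate the groups. Chrng, the fetal gamma subunit, had values of 0.27, 0.00 and -0.18 in mutant muscle, against 0.22, -0.37, -0.23 and 0.00 in wild-type muscle, by the probe set in its highest level class (1449532_at). The mutant range lay inside the wild-type range except for mutant replicate 1, which was just above wild-type replicate 1. The log2 difference was 0.13 ± 0.17 (SE) with a 95% interval of -0.27 to 0.53, that is 0.83-fold to 1.44-fold (limma adjusted p = 1). It was 0.01 when mutant replicate 1 was left out, and 0.23 when either mutant replicate 3 or replicate 1 of the wild type was. Chrne, the adult epsilon subunit, had values of 0.00, -0.20 and 0.18 in mutant muscle, against 0.07, 0.34, 0.00 and -0.53 in wild-type muscle. Its highest and its lowest value were both found in wild type, in replicates 2 and 4. The log2 difference was 0.02 ± 0.20 (SE), with an interval of -0.46 to 0.50.

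The balance of the subunits, taken as the log2 value of Chrng minus that of Chrne in each array, was 0.27, 0.20 and -0.36 in mutant muscle, against 0.15, -0.71, -0.23 and 0.53 in wild-type muscle. Either group held arrays above and below 0, and the wild-type values spanned the mutant values. It averaged 0.04 ± 0.35 (SD, n = 3) across mutant arrays, against -0.07 ± 0.53 (SD, n = 4) for wild type, a difference of 0.10 that was not tested. The other two Chrng probe sets lay in the lowest level class and did not follow the first. Values of 1427728_at were 0.16, -0.26 and -0.34 in mutant muscle against -0.12, 0.27, 0.00 and 0.03 in wild-type muscle, with a log2 difference of -0.19 ± 0.15 (SE). Values of 1452520_a_at stayed between 0.00 and 0.08 in mutant muscle and between -0.09 and 0.16 in wild-type muscle, with a difference of 0.00 ± 0.09. With the mean over all 3 probe sets the Chrng difference was -0.02, so its sign depended on the probe set.

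**Figure D1:**
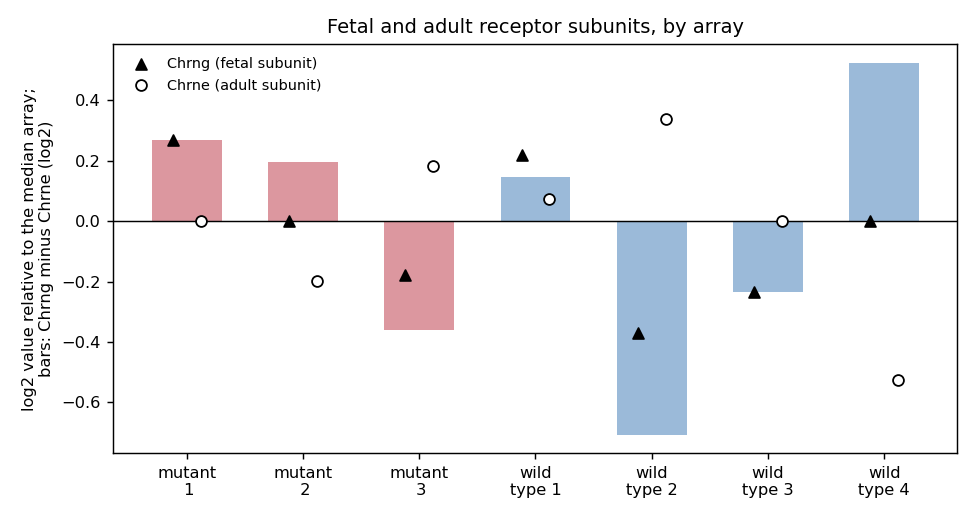
Log2 values relative to the median array of Chrng (triangles) and Chrne (circles) in 3 mutant and 4 wild-type arrays, with bars for Chrng minus Chrne in red for mutant and blue for wild-type muscle. The bars run from -0.36 to 0.27 in mutant muscle and from -0.71 to 0.53 in wild-type muscle.

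Of the subunits common to fetal and adult receptor, Chrna1 varied most. Chrna1, whose product carries the acetylcholine binding sites, had values of 0.45, 0.80 and -0.12 in mutant muscle, against 0.88, -0.63, -0.76 and 0.00 in wild-type muscle. The highest array was wild-type replicate 1 and the lowest was wild-type replicate 3, so the wild-type range enclosed all mutant arrays. Mutant muscle averaged 0.38 ± 0.46 (SD, n = 3), against -0.13 ± 0.75 (SD, n = 4) for wild type. The log2 difference of 0.50 ± 0.42 (SE), or 1.42-fold, had a 95% interval of 0.72-fold to 2.78-fold and did not pass (limma adjusted p = 1).

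Chrnb1, the beta subunit, had values of 0.03, 0.50 and 0.00 in mutant muscle, against 0.71, -0.04, -0.48 and -0.28 in wild-type muscle. As for Chrna1, wild-type replicate 1 was highest, mutant replicate 2 came next and wild-type replicate 3 was lowest. The log2 difference was 0.20 ± 0.29 (SE), with an interval of -0.47 to 0.87. Leaving out either mutant replicate 2 or replicate 3 of the wild type gave 0.04, and leaving out wild-type replicate 1 gave 0.44. Chrnd, the delta subunit, had values of 0.47, -0.20 and 0.00 in mutant muscle, against 0.15, -0.08, -0.18 and 0.00 in wild-type muscle. Here mutant replicate 1 was highest and mutant replicate 2 lowest, the reverse of the order that mutant replicates 1 and 2 had in Chrna1 and Chrnb1. The log2 difference of Chrnd was 0.12 ± 0.17 (SE), and without mutant replicate 1 it was -0.07.

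Among the clustering genes, Musk had the widest spread of the 9 members. Musk, the receptor kinase that agrin acts on, had values of 0.00, 1.22 and -0.25 in mutant muscle, against 1.11, -0.16, -0.68 and 0.00 in wild-type muscle. A single array of each group, mutant replicate 2 and wild-type replicate 1, stood more than a doubling above its group's other arrays. The log2 difference was 0.26 ± 0.49 (SE), with an interval of 0.54-fold to 2.65-fold, and it was -0.19 without mutant replicate 2. The range of Musk over the 7 arrays was 1.91 and that of Chrna1 1.64, where the median gene had 0.54, and 1.53% and 2.79% of all 18193 genes had a wider range.

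Rapsn, the scaffold under the receptor, had values of 0.00, 0.23 and 0.00 in mutant muscle, against -0.48, 0.04, -0.15 and 0.00 in wild-type muscle. Wild-type replicate 1, the highest or next highest array for Chrna1, Chrnb1 and Musk, was the lowest for Rapsn. The log2 difference was 0.22 ± 0.14 (SE), with an interval of -0.11 to 0.56. Dok7, the adaptor of MuSK, was read by 2 probe sets. Probe set 1434812_s_at had values of 0.25, -0.10 and -0.40 in mutant muscle, against 0.18, 0.00, 0.28 and 0.00 in wild-type muscle. Probe set 1442869_at had values of 0.00, -0.35 and -0.05 in mutant muscle, against 0.00, 0.24, 0.27 and 0.00 in wild-type muscle. Mutant replicates 2 and 3 lay below all wild-type arrays in both probe sets, and mutant replicate 1 did not. The log2 differences were -0.20 ± 0.16 (SE) and -0.26 ± 0.13 (SE). Leaving out 1 array, 1434812_s_at ran from -0.37 without mutant replicate 1 to -0.04 without mutant replicate 3, and 1442869_at from -0.33 without mutant replicate 1 to -0.15 without mutant replicate 2. Their mean per array gave a Dok7 difference of -0.23 ± 0.12, the only negative one among the 9 genes, with an interval of -0.51 to 0.05 (limma unadjusted p = 0.095, adjusted p = 1).

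Ncam1, a cell adhesion molecule of embryonic, denervated and regenerating fibres that is also made by satellite cells and Schwann cells, was read by 7 probe sets that differed among themselves. Probe set 1450437_a_at had values of 0.73, 0.63 and -0.17 in mutant muscle, against 0.15, -0.99, -0.41 and 0.00 in wild-type muscle. Mutant replicates 1 and 2 lay above every wild-type array, while mutant replicate 3 lay below wild-type replicates 1 and 4. The log2 difference of 0.71 ± 0.33 (SE), or 1.64-fold, had an interval of 0.96-fold to 2.78-fold, and its limma unadjusted p of 0.0636 was the smallest of the 18 probe sets (adjusted p = 1).

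Probe set 1426864_a_at, in the same level class, had values of 0.00, 0.12 and -0.06 in mutant muscle, against 0.31, -0.19, -0.13 and 0.00 in wild-type muscle, and a difference of 0.02 ± 0.14. The other 5 Ncam1 probe sets, all in the lowest class, had differences from -0.12 to 0.07. Only 1 of the 7 probe sets for Ncam1 therefore showed a difference over 0.1 in size upwards. The suffix _a_at marks probe sets that recognise several transcripts of a gene, and which Ncam1 transcripts each one reads is not stated in the files. The mean of the 12 measured Schwann cell markers ran from -0.13 to 0.05 in mutant and from -0.18 to 0.18 in wild-type muscle. That of the 13 satellite cell markers ran from -0.01 to 0.10 in mutant and from -0.10 to 0.04 in wild-type muscle, and the part of either cell type in the Ncam1 values was not tested.

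**Figure D2:**
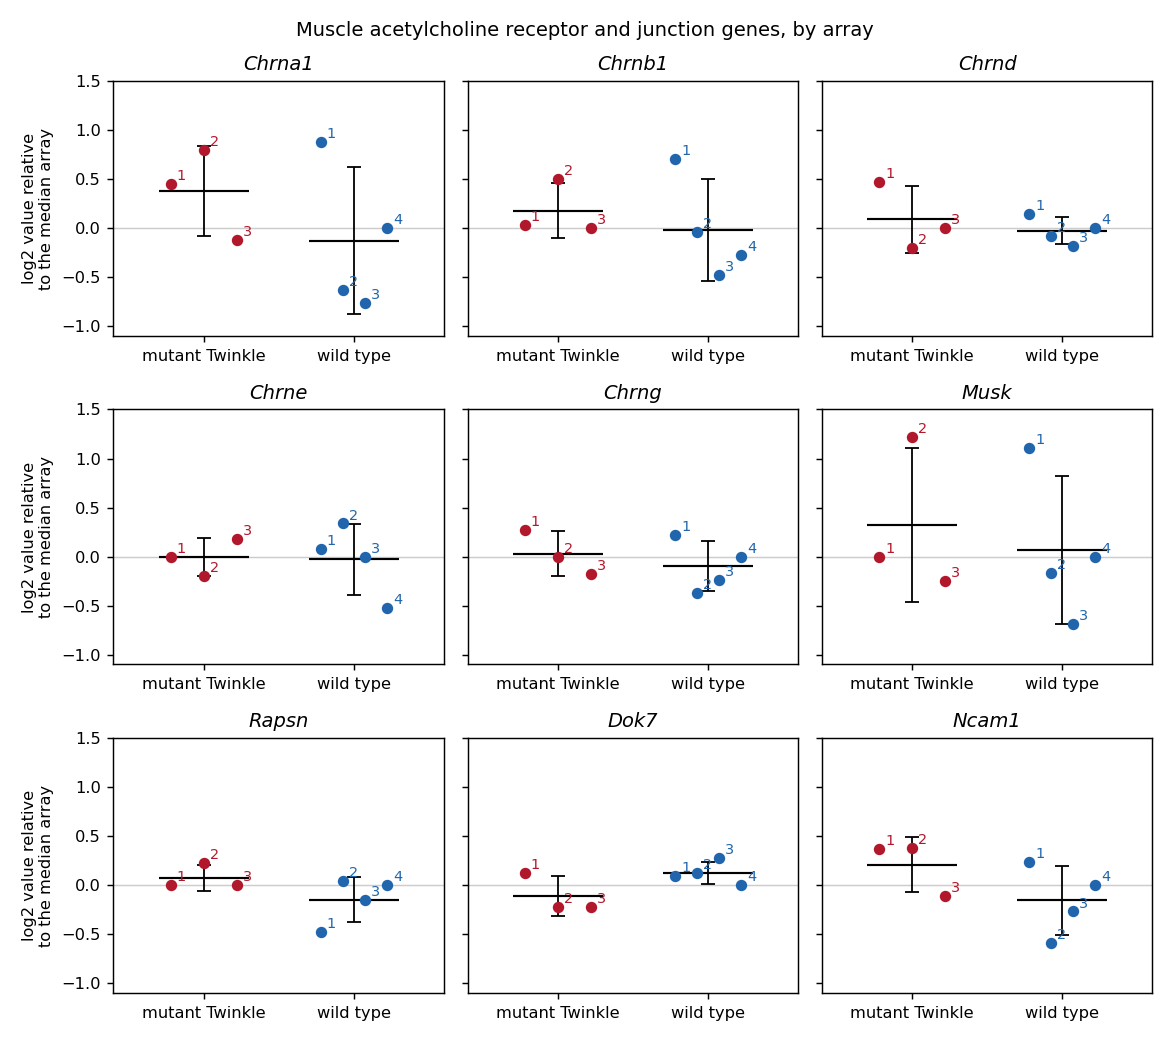
Log2 value relative to the median array of the 9 genes in mutant (red) and wild-type (blue) muscle, 1 point per array with its replicate number, mean as a line and SD as bars. The groups overlap in all 9 panels, and Musk spans the widest range, 1.91.

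Of the 18 probe sets, 0 had a limma adjusted p under 0.05, as did 0.0% of the 34945 probe sets tested, and the smallest adjusted p over the whole table was 1. A count of 0 of 18 had an unadjusted limma p under 0.05, against 627 probe sets or 1.79% of the table, of which 1.2% were higher and 0.592% lower in mutant muscle. The groups did not overlap in 0 of 18 probe sets, against 1.1% of the table with mutant muscle above and 0.941% with it below. Among genes the count was 0 of 9, against 0.896% above and 1.21% below. The log2 difference was above 0 in 14 of the 18 probe sets and in 8 of the 9 genes, against 48.3% of all probe sets and 46.4% of all genes. These counts are not of independent members, since 7 of the 18 probe sets read Ncam1. They also count differences near 0, such as 0.02 for Chrne, 0.00 for Chrng 1452520_a_at and 0.01 for Ncam1 1425126_at and 1439556_at. The median over the 18 probe sets was 0.045, and the Chrng difference was -0.02 with the mean of all its probe sets. The median difference over the 9 genes was 0.20, and over all genes it was -0.01. In whole muscle, a change in the number of cells of a type and a change in RNA per cell cannot be told apart.

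**Figure D3:**
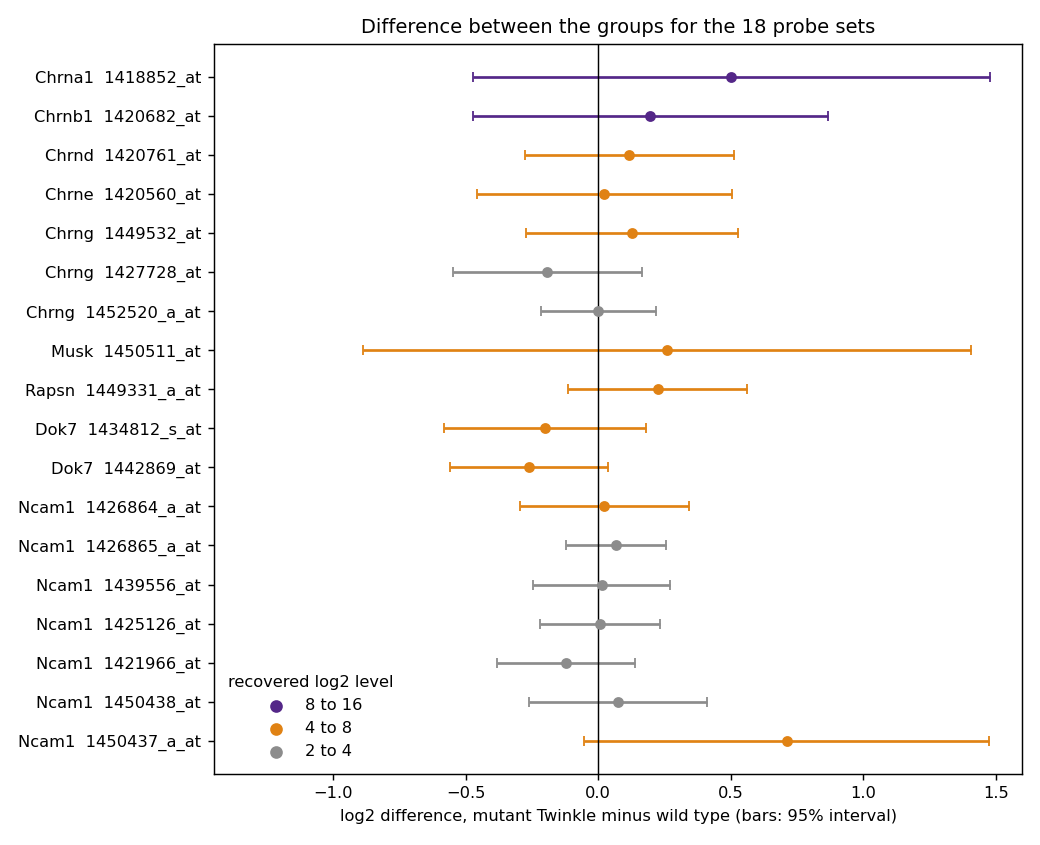
Log2 difference, mutant minus wild type, for the 18 probe sets with limma's 95% intervals, coloured by recovered level class. Every interval includes 0, and the farthest point is Ncam1 1450437_a_at at 0.71.

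Chrna1, Chrnb1 and Musk shared an order of arrays that crossed the groups. Mutant replicate 2 and wild-type replicate 1 were the highest 2 arrays, and wild-type replicate 3 the lowest, in each of the 3 genes. Mutant replicate 2 and wild-type replicate 1 were the highest 2 arrays in 12.3% of all genes, and wild-type replicate 3 was the lowest in 15.1%. Those 2 arrays had the highest scores on the first principal component and wild-type replicate 3 the lowest, and the 3 genes were singled out after their values were seen. Wild-type replicate 3 was also the lowest array for 10 of the 12 muscle fibre markers. There the muscle fibre markers averaged -0.50, against -0.10 to 0.10 in the other 6 arrays, and the fibroblast markers averaged 1.08, against -0.30 to 0.69. The adipocyte markers averaged 1.34 in wild-type replicate 3, -1.09 in wild-type replicate 1 and -0.33 in mutant replicate 2, and from -0.10 to 0.76 in the other 4 arrays. The leukocyte markers averaged 0.58 in wild-type replicate 3, -0.30 in wild-type replicate 1 and -0.075 in mutant replicate 2, and from -0.22 to 0.23 in the other 4. Their part in the receptor and Musk values was not tested.

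Ages also crossed the groups, and followed this order of arrays only in part. Wild-type replicate 1 was the oldest mouse at 26 months, and mutant replicate 3 and wild-type replicate 3 were the youngest at 21 months. Mutant replicate 2, at 24 months, was as old as mutant replicate 1 and wild-type replicate 2. Neither of those was among the highest 2 arrays for Chrna1, Chrnb1 or Musk. In the fit with age as a covariate, whose slopes were looked at only after the values were seen, the slope was 0.28 ± 0.076 (SE) log2 units per month for Chrna1, 0.19 ± 0.053 for Chrnb1 and 0.32 ± 0.091 for Musk. The limma unadjusted p-values were 0.00913, 0.00957 and 0.0106, and the adjusted p was 0.79 for each. Slopes were above 0 for 7 of the 9 genes, against 43.6% of all genes. Slopes with an unadjusted p under 0.05 that rose with age made up 2.12% of all genes and 3 of these 9, and 0.0% of all genes had a slope with an adjusted p under 0.05. Chrne, the adult subunit, had a slope of 0.0029 ± 0.065, and Chrng, the fetal subunit, one of 0.083 ± 0.044. Without wild-type replicate 1 the slopes were 0.18, 0.11 and 0.25 for Chrna1, Chrnb1 and Musk, with unadjusted p of 0.104, 0.113 and 0.0988 in limma. Age and the first principal component overlap in these mice, and their parts were not tested apart beyond a fit holding both, where the slopes were 0.18, 0.16 and 0.20.

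Mice of equal age could be set side by side at 24 months (mutant replicates 1 and 2 against wild-type replicate 2) and at 21 months (replicate 3 of each group). Chrna1 had values of 0.45 and 0.80 in mutant against -0.63 in wild-type muscle at 24 months, and of -0.12 against -0.76 at 21 months. For Chrna1, Chrnb1, Chrng, Musk and Ncam1 all 3 mutant arrays lay above the wild-type array of their age, that is 5 of 9 genes, against 8.22% of all genes. This count rests on 2 wild-type arrays, which were also the lowest 2 for Chrna1, Chrng and Ncam1, and it was not tested. The 21-month one, wild-type replicate 3, was also the lowest array for 10 of the 12 muscle fibre markers. It was the array with the Gapdh control value of -0.55 as well, while its actin control value was 0.12.

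With age in the fit, the log2 difference between the groups was 0.64 ± 0.26 (SE) for Chrna1 (limma unadjusted p = 0.0427, adjusted p = 1), 0.42 ± 0.19 for Ncam1 and 0.42 ± 0.31 for Musk. By probe set, Ncam1 differed by 0.78 for 1450437_a_at (limma unadjusted p = 0.038) and by 0.06 for 1426864_a_at. The share of all genes under 0.05 unadjusted was not counted for this fit, and no member passed after adjustment. With a term for the 3 arrays of positive component score, chosen after the data were seen, the difference was 0.66 ± 0.25 for Chrna1 (unadjusted p = 0.0316, adjusted p = 0.89 in limma) and 0.44 ± 0.16 for Ncam1 (unadjusted p = 0.0265, adjusted p = 0.89). In that fit 4.99% of all genes had an unadjusted p under 0.05 and 0.0% an adjusted p under 0.05. By probe set, those under 0.05 unadjusted were Chrna1, Ncam1 1450437_a_at at 0.81 and Dok7 1442869_at at -0.31 (limma unadjusted p = 0.00582, adjusted p = 0.845), that is 3 of 18, against 5.72% of all probe sets in either direction and 3.16% with mutant higher. Those 3 arrays were mutant replicate 2 and wild-type replicates 1 and 4, so a difference within them rests on 1 mutant mouse. The other 4 were mutant replicates 1 and 3 and wild-type replicates 2 and 3. Within those 3 arrays the Chrna1 difference was 0.36 and within the other 4 it was 0.86. For Musk the values were 0.67 and 0.30, for Chrnb1 0.28 and 0.27, for Rapsn 0.47 and 0.058, for Ncam1 0.26 and 0.56, and for Dok7 -0.27 and -0.25. The sign turned between those 3 arrays and the other 4 for Chrng (-0.11 and 0.35), Chrnd (-0.27 and 0.365) and Chrne (0.029 and -0.078).

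**Figure D4:**
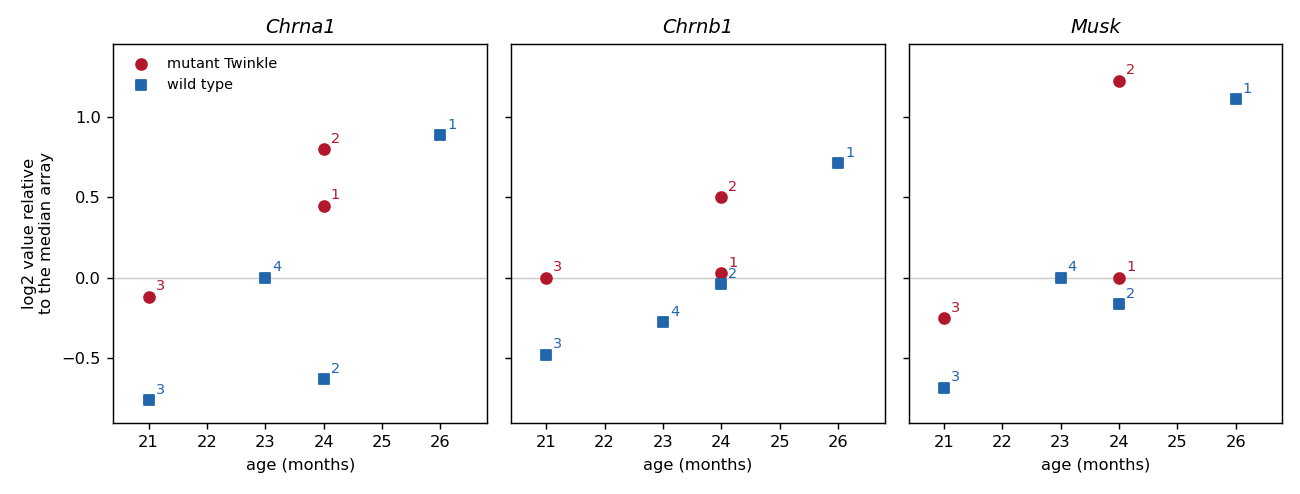
Log2 value relative to the median array against age in months for Chrna1, Chrnb1 and Musk, with mutant mice as red circles and wild-type mice as blue squares, numbered by replicate. At 21 months each group has 1 mouse, and the mutant value is above the wild-type value in each panel. That wild-type mouse, replicate 3, is also the lowest array for 10 of the 12 muscle fibre markers. Wild-type replicate 1, aged 26 months, has the highest Chrna1 and Chrnb1 values.

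Further genes of the junction were described by lists, none of whose members passed over all genes. The agrin pathway, which carries the signal from nerve to MuSK and on to the receptor, had 24 of 27 genes measured, with 0 at an unadjusted p under 0.05, 14 differences above 0 and a median of 0.02. Dnaja3, a co-chaperone that binds MuSK, differed by 0.29 ± 0.14 (SE), Prkar1a, a regulatory subunit of protein kinase A, by 0.30 ± 0.16, Abl2, a tyrosine kinase, by 0.15 ± 0.083, and Agrn itself by -0.165 ± 0.135. Abl2 was the 1 gene of the list whose groups did not overlap, with mutant muscle above, as in 0.896% of all genes. Lrp4, the agrin receptor, had values of -0.28, 0.95 and 0.00 in mutant muscle, against 0.30, -0.41, -0.41 and 0.13 in wild-type muscle. As for Musk, mutant replicate 2 and wild-type replicate 1 held its highest values, which was seen after the fact.

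Synaptic matrix and cytoskeleton genes had 26 of 29 measured, with 0 at an unadjusted p under 0.05, 15 above 0 and a median of 0.06. Ache, the esterase that breaks down acetylcholine, differed by 0.22 ± 0.12 (SE), Colq, its collagen tail, by 0.05 ± 0.13, Ank3 by 0.355 ± 0.17, and the integrin subunit Itga7 by 0.38 ± 0.20. Col4a3, a basement membrane collagen, went the other way by -0.155 ± 0.085 and was the 1 gene of the list whose groups did not overlap. Its values were -0.05, -0.08 and -0.13 in mutant muscle, against 0.02, 0.02, 0.205 and 0.02 in wild-type muscle. Groups without overlap and with mutant muscle below made up 1.21% of all genes. The neuregulin and synaptic transcription genes had 14 of 15 measured, 10 above 0 and a median of 0.04, and 1 had an unadjusted p under 0.05. This was Egr1, an immediate early transcription factor, with values of 1.91, 0.78 and 0.00 in mutant muscle against 0.38, -0.71, -0.24 and -0.94 in wild-type muscle (1.27 ± 0.48, limma unadjusted p = 0.031). Its highest array, mutant replicate 1, was also the one with the high 18S control, whose part was not tested. Dach2, a repressor of myogenin, differed by 0.43 ± 0.19. Over all genes 1.44% had an unadjusted p under 0.05.

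Denervation response genes had 28 of 29 measured, 16 above 0, a median of 0.08, and 3 higher at an unadjusted p under 0.05, against 0.77% of all genes. These were Myog at 0.80 ± 0.16 (SE), Cdkn1a at 0.87 ± 0.19 and Tnnt2 at 0.78 ± 0.28, already known to stand out in these arrays when the list was written. Myog, whose product binds E-boxes of receptor genes, had values of 0.47, 0.22 and 0.63 in mutant muscle, against -0.57, -0.41, 0.00 and -0.47 in wild-type muscle. Wild-type replicate 1, lowest for Myog, was the highest or next highest array for Chrna1, Chrnb1, Chrnd, Chrng and Musk. The order of arrays seen for Musk recurred in this list, which was counted after the values were seen. Mutant replicate 2 and wild-type replicate 1 were the highest 2 arrays for 9 of the 28 genes, against the 12.3% of all genes given above, and wild-type replicate 3 was also the lowest for 5 of those 9. These 5, named after their values were seen, were Ankrd1, Fbxo32, Gadd45a, Hdac4 and Trim63, of which Fbxo32 and Trim63 encode the ubiquitin ligases of muscle atrophy and Hdac4 a deacetylase that links denervation to Myog. Gadd45a had values of 0.00, 0.89 and 0.23 in mutant muscle, against 1.22, -0.57, -1.74 and -0.07 in wild-type muscle. The order of the top 2 arrays occurred for 6 of 24 agrin pathway genes and for 1 of 12 muscle fibre markers. With wild-type replicate 3 lowest as well, it occurred for 3 of 24 and 1 of 12. The share of all genes with this full order was not counted, so whether 5 of 28 lies above that share is not known. These arrays hold the highest and lowest scores of the first principal component, whose part was not tested. The mean of the denervation response list was -0.04, 0.32 and 0.04 in mutant muscle, against 0.29, -0.24, -0.30 and 0.01 in wild-type muscle.

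Nicotinic subunits other than the members, measured for 10 of 11 genes, had 7 differences below 0, a median of -0.09 and 0 at an unadjusted p under 0.05. Chrnb3 differed by -0.23 ± 0.10 and Chrna4 by -0.16 ± 0.093. Of these subunit genes, 6 had no probe set above the lowest level class. Schwann cell markers had a median of -0.07, with 8 of 12 below 0 and Sox10 at -0.21 ± 0.12. Motor axon markers had a median of -0.05, with 10 of 13 below 0. Stmn2, at 0.35 ± 0.23, went against most of them, and 10 of the 13 lay in the lowest level class. Satellite cell markers had a median of 0.01, with 8 of 13 above 0. Of these 13, 1 had a limma unadjusted p under 0.05, against 1.44% of all genes. This was Sdc4 at 0.52 ± 0.105 (SE). All 3 Sdc4 values in mutant muscle (0.26, 0.36 and 0.35) lay above those in wild-type muscle (0.00, -0.20, -0.38 and -0.20), at a limma unadjusted p of 0.00141 and an adjusted p of 1. Groups without overlap and with mutant muscle above made up 0.896% of all genes. The median was 0.03 for muscle fibre markers, 1.27 for slow fibre markers, -0.08 for leukocytes, -0.01 for fibroblasts, -0.16 for adipocytes, 0.21 for endothelium and -0.04 for cerebellum, with 0 genes past the adjusted threshold in each list and 1 (Flt1) at an unadjusted p under 0.05. The 2 genes of smallest p were Ttn (0.61) and Ryr1 (0.49) for muscle fibre, Myh7 (1.64) and Tnnt1 (1.54) for slow fibre, Itgam (0.18) and Cd3e (-0.365) for leukocytes, and Postn (1.13) and Dcn (0.15) for fibroblasts. For adipocytes they were Lep (-0.355) and Adig (-0.62), for endothelium Flt1 (0.26) and Kdr (0.32), and for cerebellum Cbln1 (-0.185) and Zic2 (0.145). Mag (-0.23), Prph (-0.24) and Itga7 (0.38) came second for Schwann cells, motor axons and satellite cells. Differences were below 0 for 5 of 10 measured fibroblast markers and for 5 of 12 muscle fibre markers. Postn had values of 3.82, -0.25 and 0.16 in mutant muscle, against 0.00, -0.67, 1.27 and -0.12 in wild-type muscle. Ttn and Ryr1 were lowest in wild-type replicate 3, at -1.26 and -1.29. The slow fibre list averaged -2.85 and -1.75 in wild-type replicates 1 and 2, and from -0.08 to 0.61 in the other 5 arrays.

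**Figure D5:**
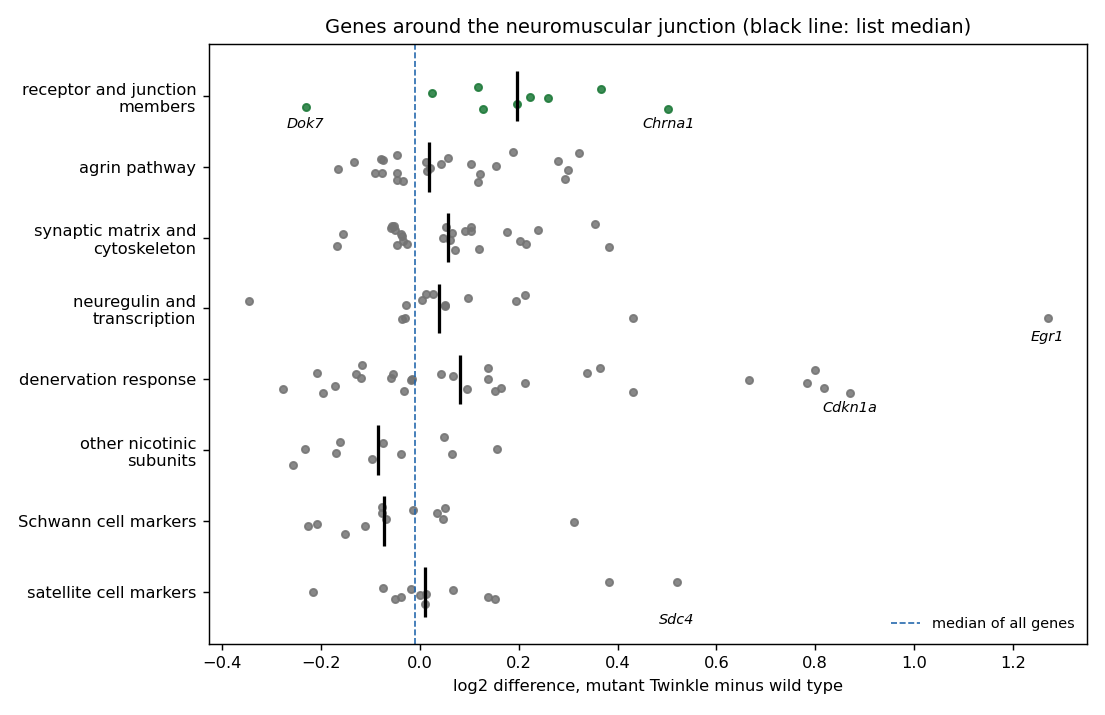
Log2 difference, mutant minus wild type, of each measured gene in the members and in 7 lists, with list medians as black lines and the median of all genes dashed. The 9 members run from -0.23 for Dok7 to 0.50 for Chrna1, and Egr1 at 1.27 is the farthest point.

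Genes with profiles nearest to the fetal and adult subunits were sought by the root mean square difference of the 7 values, among genes with at least 0.5 times the member's range. For Chrng, of 14618 genes searched, these were C2cd5, 4930461C15Rik and Osbpl10, at 0.091, 0.094 and 0.098 log2 units. For Chrne, of 11733 genes, they were Cass4, Chmp4b and Eif4g3, at 0.091, 0.091 and 0.094. No other member was among them.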

How the data were processed

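Total RNA from quadriceps was labelled as biotinylated cRNA and hybridised to 1 Affymetrix array per mouse, per the labels' protocols. The deposited log2 values of 45101 probe sets had a median over the arrays of exactly 0 in every probe set. GCOS 4.0 is named per the submitters' processing notes; summary method, scaling and centring are not given in the sources used here. The log base and the level classes were recovered from the step size between stored numbers. Arrays have no read depth, so their number limits precision.

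One symbol was annotated to 34958 probe sets, several to 932 and none here to 9211. Symbols were updated through Entrez identifiers for 34754 with RefSeq (GRCm38.p6), and 204 kept the older one. After leaving out controls, limma 3.58.1 (R 4.3.3) compared 3 mutant with 4 wild-type arrays over 34945 probe sets and over 18193 genes, two-sided, without covariate or filter, with Benjamini-Hochberg adjustment over the whole table and a threshold of 0.05. Each gene was summarised by averaging its probe sets of highest level class. P-values measure the spread between these mice, which the labels call biological replicates. The fit was tested on simulated data with independent noise of each probe set's own spread. It called 8% of 50 probe sets shifted by 0.5 log2 units, 58% of 50 shifted by 1, and 7 of 34745 left unshifted. Most shifts of 0.5 would thus go uncalled with these numbers of arrays. Variation shared between arrays was not simulated.

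The members and lists were chosen with earlier results of these data known. All members are named, with the 2 to 4 genes of smallest p in each list and, for Chrng and Chrne, the 3 genes nearest in profile. Lrp4 and Colq were added for their roles, and other additions are marked where they stand. Results were recomputed with quantile normalization, age as a covariate, the replicate block, a filter on level, a robust prior, the mean of all probe sets and leaving out each array. The component term, age slopes and comparison at equal ages were added after seeing the data.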

Additional observations from a re-analysis of the deposited data

How the results depend on the processing

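Under quantile normalization, age as a covariate, the replicate block, the 2 highest level classes only, a robust variance prior, the mean of all probe sets, a term for the 3 arrays of positive component score, and leaving out each array in turn, limma called 0 probe sets and 0 genes over the table and 0 members. The lowest adjusted p of any member difference was 0.845. Replicate numbers did not pair the arrays: correlations of deviations were -0.494, -0.32 and 0.151 for numbers 1, 2 and 3, and 0 of 3 mutant arrays lay closest to their own number. With the replicate block the Chrne difference turned to -0.14, and with the component term to -0.04. Quantile normalization turned Chrng 1452520_a_at to -0.02 and Ncam1 1426864_a_at to -0.00, the component term turned Ncam1 1425126_at to -0.00, and the mean of all probe sets turned Chrng to -0.02. The causes were not tested. Leaving out 1 array gave ranges that crossed 0 for Chrnd (-0.07 to 0.26), Chrne (-0.14 to 0.15), Musk (-0.19 to 0.61), Chrng 1452520_a_at (-0.04 to 0.05) and Ncam1 probe sets 1426864_a_at (-0.04 to 0.13), 1439556_at (-0.06 to 0.08) and 1425126_at (-0.06 to 0.07). The sign held for Chrnb1 (0.04 to 0.44), Chrng 1449532_at (0.01 to 0.23) and 1427728_at (-0.35 to -0.09), Rapsn (0.11 to 0.29), and Dok7 1434812_s_at (-0.37 to -0.04) and 1442869_at (-0.33 to -0.15). Chrna1 ranged from 0.29 to 0.84, the highest without wild-type replicate 1, and Ncam1 1450437_a_at from 0.48 to 0.99. Chrng minus Chrne, at 0.10, ranged from -0.11 to 0.30, and was 0.04 under quantile normalization and -0.04 with the mean of all probe sets. The age slope of Chrna1 ranged from 0.18 to 0.30, of Chrnb1 from 0.11 to 0.24 and of Musk from 0.25 to 0.38.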
